A study of Mus musculus with 36 samples.

Results

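Ido1 and Ubd were followed array by array in mouse colon, as 2 of the 17097 genes measured on 36 arrays. Both were selected on their intensities in these same arrays, so their own differences are given as a description, with a standard error and no test. Ido1 (mouse gene 15930) lies on chromosome 8 at 24584133 to 24596952 and Ubd (mouse gene 24108) on chromosome 17 at 37193892 to 37196101, in build GRCm38.p6 of the RefSeq annotation. Each had a single named probe set, so no choice between probe sets was needed.

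The study followed wild-type (WT) mice and mice lacking IL-17RC, a subunit of the IL-17 receptor, through a colon tumor protocol. Mice of 6 to 8 weeks were either left untreated or given the carcinogen azoxymethane (AOM) by injection and then 3 cycles of dextran sulfate sodium (DSS), an agent that injures the colon lining, as 3% drinking water for 5 days followed by plain water for 14 days. In each genotype there were 4 untreated arrays (day 0), 4 at day 7, 4 at day 15 and 6 of tumors (day 63). The day 7 and day 15 arrays were labelled AOM-DSS, the tumors came from the same protocol, and no group received AOM or DSS alone. At day 7 and day 15 the 3 cycles could not yet have been completed. The sample titles do not say how much DSS had been given by then. The sources used here do not say how the receptor gene was disrupted, or whether tissue was pooled. Nothing in the labels says that each array came from a separate mouse, so a p-value reflects the spread among arrays, which may be technical.

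Ido1 encodes indoleamine 2,3-dioxygenase, which opens the ring of tryptophan and commits it to the kynurenine pathway. It is a classical target of interferon gamma, and in the gut it is found in epithelial cells and in macrophages and dendritic cells. Ubd encodes FAT10, a ubiquitin-like protein that is activated by Uba6, passed on by the conjugating enzyme Ube2z and coupled to other proteins, which then go to the proteasome. FAT10 is known for its strong induction by interferon gamma together with tumor necrosis factor.

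The bases before the Ubd start are shown because a match to the NF-kB motif, the binding pattern of a factor that tumor necrosis factor activates, lies close to the start. The 250 bases before the Ubd start (RefSeq table, GRCm38.p6, plus strand, chr17:37193642-37193891) read as follows, with the letters that match an NF-kB motif in capitals.
Ubd: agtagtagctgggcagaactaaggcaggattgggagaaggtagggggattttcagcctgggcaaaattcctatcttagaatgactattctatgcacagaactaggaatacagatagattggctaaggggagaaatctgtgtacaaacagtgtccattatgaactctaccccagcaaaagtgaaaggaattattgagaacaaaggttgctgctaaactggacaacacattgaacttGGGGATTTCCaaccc
The match ended 6 bases before the start. Over 32851 promoter windows of the same build, 7.25% held an NF-kB match on either strand, 2.98% held the core of the interferon-stimulated response element (GAAA, any 2 bases, GAAA) and 7.02% held the gamma-activated site TTCNNNGAA. Neither of the last 2 letter patterns was in the Ubd window, which says only that these letters are not in these bases. Ido1 had no promoter window in the RefSeq set used, so its bases were not searched.

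Intensities ran from 4 to 14185 over the 45037 probe sets, and array medians were 14 to 16, so values below 16 are called near background here. Il17rc itself read 76 to 515 on the WT arrays and 7 to 15 on the arrays labelled KO, except for 331 and 44 on replicates 1 and 2 labelled KO day 7. The main day 7 results are therefore also given without both of those arrays. Krt5, a squamous keratin, was above 100 on 7 arrays, among them WT untreated replicates 1 and 4 and those same day 7 arrays. Both day 15 arrays of replicate 4 stood apart in the neutrophil gene S100a8, at 5585 in WT and 6239 in KO against 192 to 1356 on the other day 15 arrays. The epithelial markers (10 measured) were all above background in every group, as the tissue label would have it.

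In untreated colon, Ido1 and Ubd were low in WT mice, at 29 or below, and at high levels in KO mice. Ido1 read 26, 11, 7 and 9 on the 4 WT arrays and 1345, 1462, 1378 and 1739 on the 4 KO arrays. Ubd read 29, 15, 17 and 10 on the WT arrays and 1499, 1681, 1494 and 1580 on the KO arrays. Every KO array was far above every WT array for both genes. The groups did not overlap in this direction for 5.95% of all genes.

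The mean Ido1 intensity was 1481 ± 179 (SD, n = 4) in KO and 13.3 ± 8.66 (SD, n = 4) in WT untreated colon, a log2 difference of 6.82 ± 0.78 (SE), or 113-fold. The mean Ubd intensity was 1563.5 ± 87.7 (SD, n = 4) in KO and 17.8 ± 8.06 (SD, n = 4) in WT, a log2 difference of 6.42 ± 0.62 (SE), or 85.6-fold. By size, these were the differences ranked 1 and 2 among all genes. The WT values were low, 7 to 26 for Ido1 and 10 to 29 for Ubd, so the folds depend on the constant added before the log: with 16 in place of 1 the log2 differences were 5.68 and 5.53. Without the arrays that had Krt5 above 100 they were 7.19 and 6.47. In bulk tissue, fewer cells that carry an RNA and less RNA per cell cannot be told apart.

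**Figure D1:**
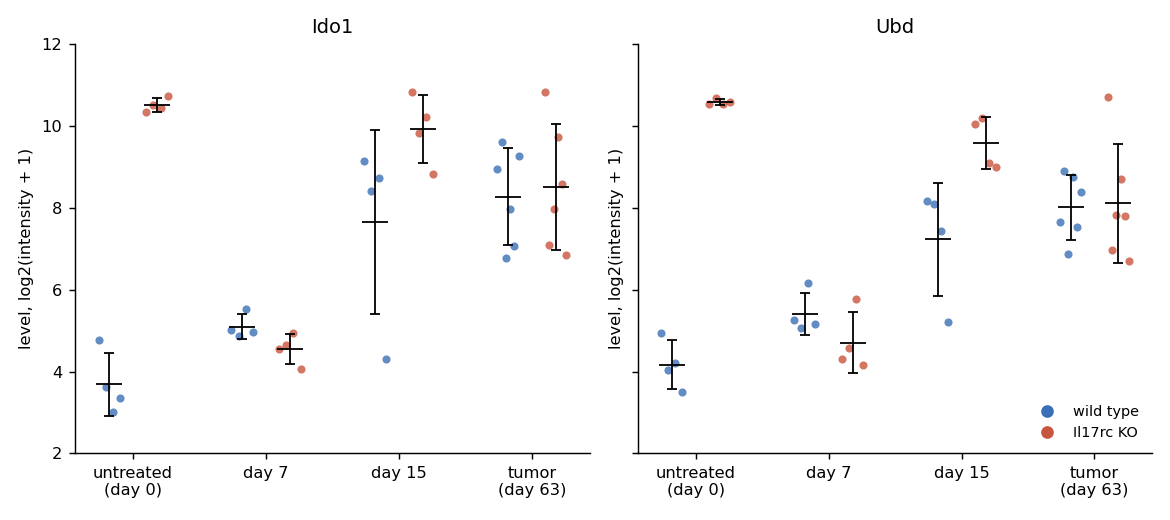
Normalized level, log2(intensity + 1), of Ido1 and Ubd on each of the 36 arrays, by genotype and stage; points are arrays, and black marks with error bars are group means ± SD. As deposited intensities, untreated KO arrays sit at 1345 to 1739 for Ido1 and 1494 to 1681 for Ubd, while all day 7 arrays of both genotypes sit at 59 or below.

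At day 7 the genotypes lay close together, at levels far under those of untreated KO colon. Ido1 read 29, 27, 37 and 28 on the WT arrays and 21, 24, 30 and 16 on the arrays labelled KO. Ubd read 34, 31, 59 and 32 on the WT arrays and 18, 23, 54 and 17 on the arrays labelled KO. The ranges of the genotypes overlapped for both genes. The log2 difference of KO and WT was -0.54 ± 0.78 (SE) for Ido1 and -0.70 ± 0.62 (SE) for Ubd, each near or below its standard error in size. Without the doubted replicates 1 and 2 labelled KO day 7 it was -0.59 for Ido1 and -0.44 for Ubd.

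Set against untreated colon, day 7 went in opposite directions in the genotypes. In KO mice the log2 difference was -5.96 ± 0.78 (SE) for Ido1, or 62.2-fold lower, and -5.88 ± 0.62 (SE) for Ubd, or 59.0-fold lower. No day 7 array labelled KO reached any untreated KO array for either gene, a pattern that 11.9% of all genes showed in this direction. Without the doubted replicates the differences were -6.01 and -5.62. In WT mice the log2 difference was 1.40 ± 0.78 (SE) for Ido1 and 1.24 ± 0.62 (SE) for Ubd. All WT day 7 arrays lay above all WT untreated arrays, by as little as 27 against 26 for Ido1 and 31 against 29 for Ubd, as was so for 3.35% of all genes. The genotype difference in the day 7 change was -7.36 ± 1.11 (SE) for Ido1 and -7.12 ± 0.88 (SE) for Ubd on the log2 scale. Without the doubted replicates it was -7.41 and -6.86.

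At day 15 both genes were above their day 7 levels in all arrays other than WT replicate 4, and KO arrays were higher than the WT arrays of the same replicate number. Ido1 read 574, 329, 421 and 23 in WT and 1881, 938, 1203 and 460 in KO. Ubd read 290, 261, 167 and 45 in WT and 1113, 1211, 555 and 527 in KO. WT replicate 4 was the lowest WT array for both genes and KO replicate 4 the lowest KO array for both. Over all arrays the genotypes overlapped in Ido1, where WT replicate 1 was above KO replicate 4, and did not overlap in Ubd, as was so for 2.46% of all genes in this direction. Day 15 arrays of the same replicate number were taken as pairs because their residuals were correlated (0.174 to 0.801). No label states such a pairing, and the share of all genes higher in every pair was not counted. Within the 4 pairs KO was higher than WT in 4 of 4 for both genes, by 1.42 to 4.51 on the log2 scale for Ido1 and by 1.65 to 3.80 for Ubd, with the largest gap in pair 4 for each. The SD over the pairs was 1.49 for Ido1 and 0.98 for Ubd.

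The log2 difference of KO and WT at day 15 was 2.28 ± 0.78 (SE) for Ido1, or 4.84-fold, and 2.36 ± 0.62 (SE) for Ubd, or 5.12-fold. WT replicate 4 decided much of this size: without it the differences were 1.16 and 1.68, and without both replicate 4 arrays they were 1.53 and 1.88. Against untreated WT colon, WT day 15 was 15.5-fold higher for Ido1 (log2 3.96 ± 0.78, SE) and 8.34-fold higher for Ubd (log2 3.06 ± 0.62, SE). Ubd alone was free of overlap there, as were 4.26% of all genes in this direction. Without WT replicate 4 these log2 differences were 5.07 and 3.73. In KO mice, day 15 differed from untreated by -0.58 ± 0.78 (SE) for Ido1, with overlapping arrays. For Ubd that difference was -1.0 ± 0.62 (SE) with no overlap, against 4.59% of all genes in this direction.

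In tumors both genes varied widely from array to array, and the genotypes could not be separated. Ido1 in WT tumors had a lowest value of 113, a median of 370.5 and a highest value of 774. In KO tumors its lowest value was 112, its median 313 and its highest 1807. Both genotypes covered the same low range, and only KO replicate 1 went past the WT maximum by far. Ubd in WT tumors had a lowest value of 121, a median of 266.5 and a highest value of 466. In KO tumors its lowest value was 100, its median 225 and its highest 1672. KO replicate 1 was again the highest, and KO replicate 6 the lowest, for both genes.

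The log2 difference of KO and WT tumors was 0.24 ± 0.64 (SE) for Ido1 and 0.10 ± 0.51 (SE) for Ubd. Its sign rested on single arrays, 4 of the 12 for Ido1 and 3 of the 12 for Ubd: without KO tumor replicate 1 it was -0.23 for Ido1 and -0.42 for Ubd, and it was also below 0 for both genes without KO replicate 4 and without WT replicate 3, and for Ido1 without WT replicate 5. KO tumor replicate 4 was also the one array with clear signal of the Y-linked genes Eif2s3y (139) and Kdm5d (125), which read 15 or below on all other arrays. Against untreated colon of the same genotype, WT tumors were 23.9-fold higher for Ido1 (log2 4.58 ± 0.71, SE) and 14.4-fold higher for Ubd (log2 3.84 ± 0.57, SE). All WT tumors were above all untreated WT arrays for both genes, as held for 8.04% of all genes. In KO mice tumors were 4.0-fold lower than untreated colon for Ido1 (log2 -2.0 ± 0.71, SE) and 5.56-fold lower for Ubd (log2 -2.48 ± 0.57, SE). Here the arrays overlapped, since KO tumor replicate 1 read 1807 for Ido1 and 1672 for Ubd. The genotype difference in the tumor change was -6.58 ± 1.01 (SE) for Ido1 and -6.32 ± 0.80 (SE) for Ubd.

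**Figure D2:**
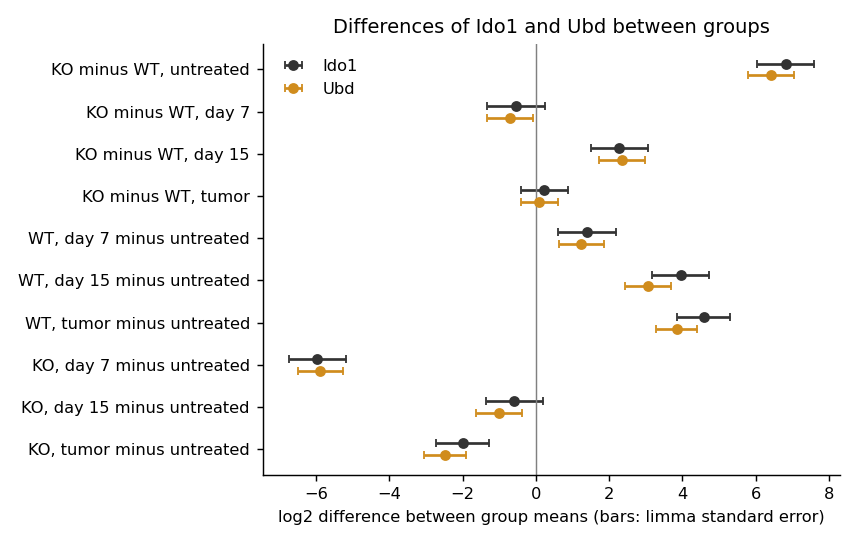
Log2 differences of Ido1 and Ubd with their standard errors for the 10 comparisons; positive values mean higher in KO or higher than untreated. The KO against WT difference is 6.82 and 6.42 in untreated colon and 0.24 and 0.10 in tumors, and the changes from untreated point up in WT and down in KO.

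Ordered by mean log2 level, the 8 groups ran in the same order for both genes: KO untreated, KO day 15, KO tumor, WT tumor, WT day 15, WT day 7, KO day 7 and WT untreated. Neighbours in that order had overlapping arrays throughout for Ido1. For Ubd the one exception was KO untreated, whose arrays all lay above those of KO day 15. Of the 36 arrays, 23 read 100 or more for Ido1 and 23 for Ubd, and 7 read 1000 or more for each.

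The 2 genes also moved together from array to array. Their log2 levels had a Pearson correlation of 0.972 over the 36 arrays, and by this measure each was the gene most like the other among all those measured. By Spearman's rank correlation Il18bp (0.971) came before Ido1 (0.968) in likeness to Ubd. Both genes were selected on these arrays, so their likeness is a description only. Part of this comes from the group means that they share: after these were subtracted the correlation was 0.861. Ubd was then in place 7 among the genes most like Ido1, and Ido1 in place 4 among those most like Ubd. In WT day 7, WT day 15, WT tumor, KO day 7 and KO tumor, one and the same array was highest for both genes and one and the same array was lowest for both. WT untreated colon shared only the highest array and KO day 15 only the lowest. KO untreated colon, where both genes were highest, shared neither. How often other pairs of genes share such arrays was not counted.

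**Figure D3:**
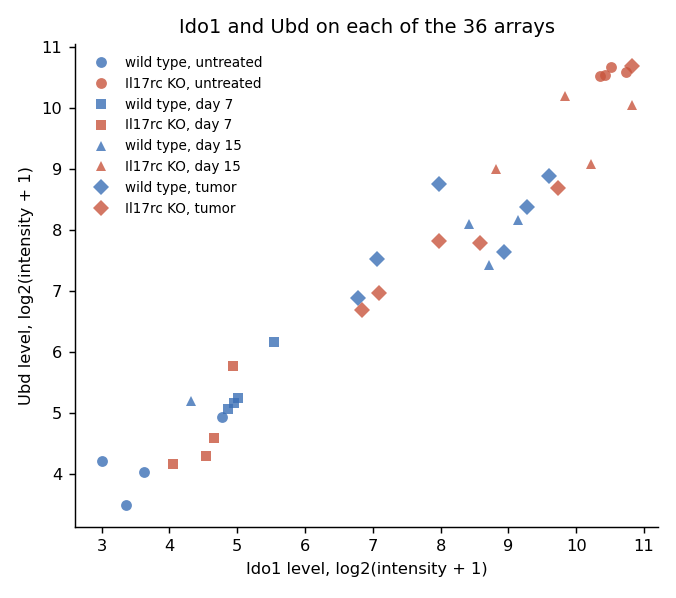
Log2 level of Ubd against log2 level of Ido1 on each of the 36 arrays, with colours and symbols for genotype and stage. The points follow a single band (Pearson correlation 0.972), with the 4 untreated KO arrays at the top end and untreated WT and day 7 arrays at the bottom end.

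The other genes most like Ido1 over the 36 arrays were Gbp10 (0.956), Cxcl9 (0.952), AW112010 (0.950), Ifi47 (0.938), Tgtp1 (0.929), Phf20l1 (0.923), Ifit2 (0.917), Irgm2 (0.913) and Iigp1 (0.907). Those most like Ubd were Gbp10 (0.967), Tgtp1 (0.952), Ifi47 (0.946), Irgm2 (0.943), Psme1 (0.936), Cxcl9 (0.934), Phf20l1 (0.932), Mlkl (0.929) and AW112010 (0.927). Gbp10, Ifi47, Tgtp1, Irgm2 and Iigp1 are interferon-inducible GTPases, Cxcl9 is a chemokine that draws T cells, Psme1 is an activator subunit of the proteasome and Mlkl carries out necroptosis. These GTPase probe sets can bind close family members, so the gene named may not be the single source of the signal. The arrays share group, tissue and normalization, and a correlation over them is a description only.

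Cxcl9 shows the shared pattern in its own values: it read 380 to 559 in KO untreated and 9 to 30 in WT untreated colon. At day 7 it read 11 to 16 on the arrays labelled KO and 14 to 52 in WT. Gbp10 read 297 to 552 in KO untreated and 17 to 35 in WT untreated colon, and 67 to 499 in KO tumors. After group means were subtracted, the 5 genes most like Ido1 were Irf1 (0.892), Cxcl9 (0.884), Psmb9 (0.874), AW112010 (0.867) and Apol7a (0.865). For Ubd they were Psmb9 (0.905), Psmb8 (0.904), H2-DMb2 (0.892), Ido1 (0.861) and Zbp1 (0.856). Psmb8 and Psmb9 are catalytic subunits of the immunoproteasome, the form of the proteasome that interferon gamma brings in, and H2-DMb2 helps to load peptides on MHC class II. Counting both members, 13 genes made up the 2 lists of most-like genes over the arrays. A promoter window in the RefSeq table was at hand for 9 of them, Ido1 not included. The NF-kB motif was in 3 of these (AW112010, Ifit2 and Ubd), the gamma-activated site in 3 (Ifit2, Irgm2 and Tgtp1) and the interferon-stimulated response element core in 2 (Irgm2 and Tgtp1). Over the 13605 measured genes with a window the shares were 10.1%, 7.59% and 3.09% in that order.

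Within tumors, Ido1 was set beside Ubd, and each beside Irf1, a transcription factor of the interferon gamma response. All were chosen on these arrays, Irf1 as the gene most like Ido1 within groups, so the correlations over 6 arrays are a description with no test. In KO tumors Ido1 and Irf1 had r = 0.989 (rho = 1), Ido1 and Ubd r = 0.965 (rho = 0.943), and Ubd and Irf1 r = 0.966 (rho = 0.943). Without the 2 arrays farthest from the median, r was 0.932, 0.943 and 0.974 in that order. In WT tumors Ido1 and Irf1 had r = 0.903 (rho = 0.928), Ido1 and Ubd r = 0.718 (rho = 0.829), and Ubd and Irf1 r = 0.817 (rho = 0.783). Without the 2 farthest arrays these r were 0.783, -0.02 and 0.458, so that of Ido1 and Ubd in WT tumors rested on those arrays.

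**Figure D4:**
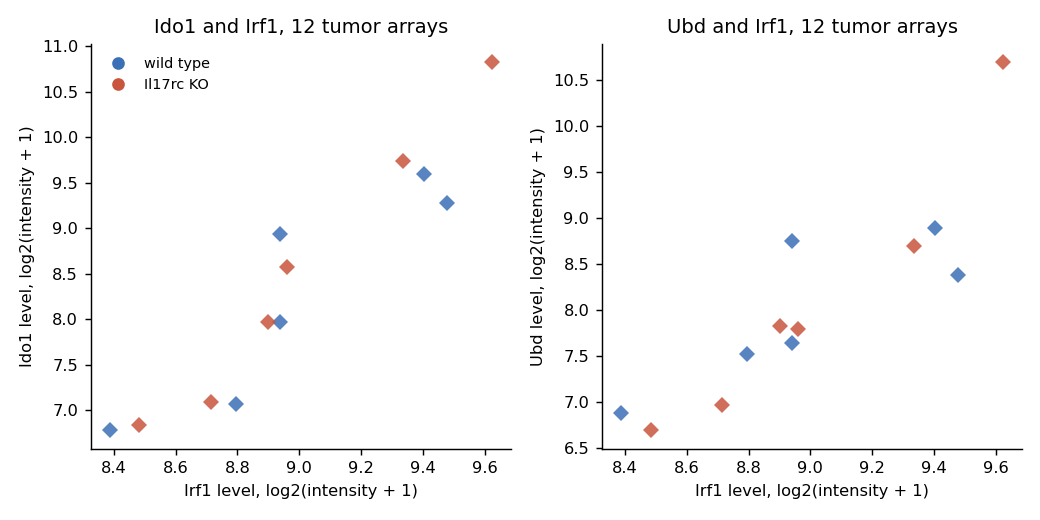
Log2 levels of Ido1 and of Ubd against that of Irf1 in the 6 WT and the 6 KO tumor arrays. The KO points fall close to a line (r = 0.989 for Ido1 and 0.966 for Ubd), and the WT points scatter more for Ubd (r = 0.817).

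A set of 65 measured genes around Ido1 and Ubd was tested with limma over all genes, in lists of cytokines, receptors, transducers, inhibitors, kynurenine pathway, aryl hydrocarbon receptor and GCN2 readouts, FAT10 conjugation and other ubiquitin-like proteins. In untreated colon 8 of the 65 were higher in KO than WT and 0 were lower, against 1.79% of all genes higher and 0.485% lower. The median log2 difference was 0.07 over the 65 and 0.00352 over all genes. The lists were chosen with earlier results of these data known, so a count above the share of all genes may reflect that choice. At day 7 1 gene passed (0.298% of all genes in either direction), at day 15 1 gene (0.222%) and in tumors 0 genes (0.0526%). Within WT mice 1 gene passed at day 7 (1.66%), 3 at day 15 (3.38%) and 19 in tumors (22.8%). Within KO mice 13 passed at day 7 (12.2%), 1 at day 15 (0.813%) and 18 in tumors (20.8%). In tumors 0 of the 65 also had an unadjusted p under 0.05 between genotypes (2.47% of all genes), against 15 in untreated colon (12.8%), 16 at day 7 (11.5%) and 10 at day 15 (10.1%). Within WT mice, and within KO mice at day 15 and in tumors, the counts were a single gene or a share of the same order as that of all genes. The comparisons of KO stages with untreated share their untreated arrays with the KO against WT comparison in untreated colon.

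Among the inducing cytokines, 1 of 6 measured genes passed in untreated colon. Ifng, the gene of interferon gamma, was higher in KO by 0.46 ± 0.10 on the log2 scale (SE, limma adjusted p = 0.00463), but its intensity was 8 to 15 on all 36 arrays, within the range called near background. Without the arrays with Krt5 above 100 its adjusted p was 0.0882. Tnf rose in WT tumors, from a mean of 9 to 21.7 (log2 1.19 ± 0.30, SE, limma adjusted p = 0.00341), and its adjusted p was 0.082 without the arrays with Krt5 above 100. In KO tumors Tnf rose by 0.83 on the log2 scale (limma adjusted p = 0.0414, lost in 14 of 23 other settings). Of the 9 receptor genes 0 passed between genotypes at any stage by limma, with 1, 3, 0 and 0 at an unadjusted p under 0.05 in untreated, day 7, day 15 and tumor. Tnfrsf1b, a receptor of tumor necrosis factor, rose in WT at day 15 (log2 1.84 ± 0.31, SE, limma adjusted p = 0.000693, and 0.0724 with arrays blocked by the letter in their titles) and in WT tumors (2.06 ± 0.28, SE, adjusted p = 3.39e-06). In KO it rose by 1.24 at day 15 (limma adjusted p = 0.0468, lost in 13 of 20 other settings) and did not pass in tumors. No cytokine or receptor gene of these lists passed for the genotype difference in the change at any stage. Ifngr1, a chain of the interferon gamma receptor, fell by 0.69 ± 0.15 in KO tumors (SE, limma adjusted p = 0.000857) and fell by 0.45 ± 0.15 in WT tumors (SE, adjusted p = 0.0235, lost in 8 of 22 other settings).

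Of the 8 transducers, 4 were higher in untreated KO colon, with a list median of 0.86 on the log2 scale. Irf1 read 472, 369, 395 and 373 in WT and 1030, 1209, 1477 and 1469 in KO untreated colon. The KO arrays were all above the WT arrays, by 1.66 ± 0.27 on the log2 scale (SE, limma adjusted p = 0.000126). Irf8, a factor of myeloid cells, was higher by 1.36 ± 0.25 (SE, limma adjusted p = 0.000729) and Irf9, the DNA-binding part of the ISGF3 complex, by 1.62 ± 0.26 (SE, adjusted p = 0.000154). Stat2, another part of that complex, was higher by 1.52 ± 0.30 (SE, limma adjusted p = 0.00198), from a mean intensity of 12.5 to 37.0.

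The same 4 transducers were lower than in untreated KO colon both on the day 7 arrays labelled KO and in KO tumors. Irf1 read 339, 456, 516 and 450 on the day 7 arrays labelled KO, a fall of 1.49 ± 0.27 on the log2 scale (SE, limma adjusted p = 0.000241). In KO tumors it fell by 1.29 ± 0.24 (SE, limma adjusted p = 0.000226). Irf8 fell by 1.49 ± 0.25 at day 7 (SE, limma adjusted p = 9.47e-05) and fell by 1.61 ± 0.23 in tumors (SE, adjusted p = 5.22e-06). The Irf9 call at day 7 (limma adjusted p = 0.00505) was lost without the doubted replicates 1 and 2 (adjusted p = 0.106), and its call in tumors (0.0474) was lost in 14 of 23 other settings, up to 0.149 without KO tumor replicate 6. Without replicates 1 and 2 labelled KO day 7, Irf1 fell by 1.35 (limma adjusted p = 0.00813) and Irf8 fell by 1.38 (adjusted p = 0.00361) at day 7. In WT mice Irf1 and Irf8 passed at no stage. The genotype difference in the change was -1.93 for Irf1 and -1.59 for Irf8 at day 7 (limma adjusted p = 0.00269 and 0.00919). Without the arrays with Krt5 above 100 these p-values were 0.0717 and 0.0851. Such interactions passed for 2.37% of all genes at day 7, 0.0819% at day 15 and 0.784% in tumors. They contain the untreated difference of KO and WT, and neither Irf1 nor Irf8 passed between genotypes at day 7 or in tumors.

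**Figure D5:**
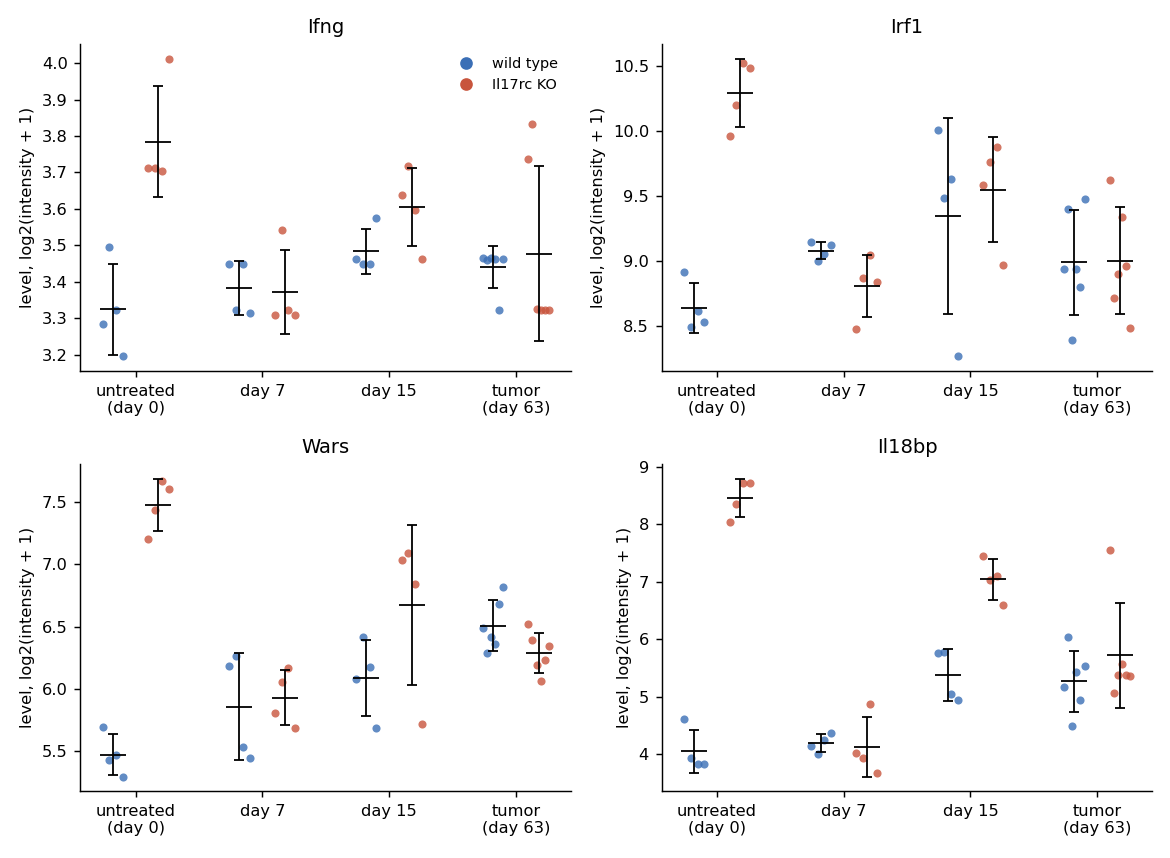
Normalized level, log2(intensity + 1), of Ifng, Irf1, Wars and Il18bp on each array of the 8 groups; points are arrays, and black marks with error bars are group means ± SD. The means of Irf1, Wars and Il18bp are highest in untreated KO colon, where as deposited intensities Irf1 reads 1030 to 1477, Wars 147 to 199 and Il18bp 266 to 432.

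Among the inhibitors, Il18bp, a secreted protein that binds interleukin 18 and is induced by interferon gamma, had the largest difference of the 65 genes in untreated colon. It read 23, 14, 13 and 13 in WT and 266, 329, 419 and 432 in KO, higher by 4.41 ± 0.37 on the log2 scale (SE, limma adjusted p = 2.16e-09). On the day 7 arrays labelled KO it read 15, 15, 29 and 12, a fall of 4.33 ± 0.37 (SE, limma adjusted p = 1.74e-09), and it fell by 4.18 without the doubted replicates 1 and 2 (adjusted p = 9.48e-07). At day 15 it read 56, 49, 29 and 38 in WT and 186, 134, 140 and 109 in KO, with no overlap. That difference of 1.66 ± 0.37 (SE, limma adjusted p = 0.0469) was close to the threshold and was lost in 11 of 20 other settings, with adjusted p = 0.0626 when replicate numbers were paired as a block. The arrays whose removal lost it were KO replicate 1 (0.2), KO replicate 2 (0.0982), WT replicate 1 (0.0996), WT replicate 3 (0.122) and WT replicate 4 (0.0554), each a limma adjusted p. In KO tumors it fell by 2.74 ± 0.34 against untreated (SE, limma adjusted p = 6.08e-07). Socs3, a brake on cytokine signalling, was higher in untreated KO by 2.27 ± 0.49 (SE, limma adjusted p = 0.00581, and 0.0615 without the arrays with Krt5 above 100), and it rose in WT at day 15 by 3.40 ± 0.49 (SE, adjusted p = 8.89e-05). Ptpn2, a phosphatase that acts on STAT proteins, was the gene that passed between genotypes at day 7 (0.57 ± 0.13, SE, limma adjusted p = 0.0383), and it was lost in 12 of 21 other settings, the removal of replicates 1 and 2 labelled KO day 7 among them.

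Of the 13 measured genes of tryptophan uptake and the kynurenine pathway, 1 passed between genotypes in untreated colon and 0 by limma at the other stages, where 1, 2 and 0 had an unadjusted p under 0.05 at day 7, day 15 and in tumors. That gene was Wars, the tryptophanyl-tRNA synthetase, which is induced by interferon gamma and uses tryptophan without breaking it down. It read 49, 45, 41 and 42 in WT and 147, 172, 199 and 197 in KO untreated colon, higher by 2.01 ± 0.22 on the log2 scale (SE, limma adjusted p = 3.25e-07). It fell by 1.55 ± 0.22 on the day 7 arrays labelled KO (SE, limma adjusted p = 1.05e-05) and by 1.19 ± 0.20 in KO tumors (SE, adjusted p = 6.28e-05). In WT tumors it rose by 1.04 ± 0.20 (SE, limma adjusted p = 0.000292). The genotype difference in the change was -1.94 at day 7 (limma adjusted p = 0.00023) and -2.22 in tumors (adjusted p = 2.71e-05), and neither call was lost in any other setting tried, the removal of replicates 1 and 2 labelled KO day 7 among them (adjusted p = 0.00228 at day 7).

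Enzymes later in the pathway had other patterns. Kyat1, a kynurenine aminotransferase, did not pass between genotypes and was lower in tumors of both: it fell by 2.15 ± 0.34 in WT (SE, limma adjusted p = 2.41e-05), and fell by 1.97 ± 0.34 in KO (SE, adjusted p = 7.7e-05). Nadsyn1, the last enzyme of NAD synthesis, fell in KO tumors by 1.07 ± 0.27 (SE, limma adjusted p = 0.00388) and fell by 0.84 ± 0.27 in WT tumors (SE, adjusted p = 0.0211, lost in 4 of 22 other settings). Slc7a5, a carrier of large neutral amino acids such as tryptophan, rose in KO tumors by 1.46 ± 0.41 (SE, limma adjusted p = 0.00948, and 0.0579 with the letter in the titles as a block) and in WT tumors by 1.19 ± 0.41 (SE, adjusted p = 0.0341, lost in 9 of 22 other settings). Ido2, the paralog of Ido1 and its neighbour at a distance of 7.719 kb, read 10 to 19 on all arrays and passed in no comparison. The list of aryl hydrocarbon receptor and GCN2 readouts held genes that kynurenine or a lack of tryptophan can switch on. It also held Ahr, Arnt and Eif2ak4, which encode the receptor, its partner and the GCN2 kinase. Of its 10 genes 0 passed between genotypes at any stage by limma. At an unadjusted p under 0.05 there were 1, 2, 1 and 0 in untreated, day 7, day 15 and tumor.

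Of the 6 measured genes of FAT10 conjugation and its partners, and of the 8 other ubiquitin-like modifiers, 0 passed between genotypes at any stage by limma. At an unadjusted p under 0.05 there were 2 and 4 in these lists at day 7, 1 and 0 at day 15, and 0 in both lists in untreated colon and in tumors. Mad2l1, a spindle checkpoint protein to which FAT10 binds, followed the stages in both genotypes instead. It fell on the day 7 arrays labelled KO by 1.73 ± 0.23 (SE, limma adjusted p = 3.91e-06) and in WT at day 7 it fell by 1.64 ± 0.23 (SE, adjusted p = 3.21e-05, and 0.0535 without the arrays with Krt5 above 100). In KO tumors it rose by 0.76 ± 0.21 (SE, limma adjusted p = 0.00779). Ube2z, the conjugating enzyme, rose on the day 7 arrays labelled KO by 0.48 ± 0.12 (SE, limma adjusted p = 0.00713, and 0.0732 with the mean of all probe sets), while Ubd was 59.0-fold lower there. Without the doubted replicates the adjusted p was 0.000139 for Mad2l1 and 0.0446 for Ube2z at day 7 (limma).

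On the chromosomes, the nearest measured genes on both sides of Ido1 (Tcim, 9130214F15Rik, Ido2, Adam18, Adam3 and Adam5) did not pass between genotypes in untreated colon. Around Ubd, H2-M3, a non-classical MHC class I gene 74.133 kb away, was higher in untreated KO colon, at 319 ± 20.0 against 124.5 ± 19.8 (SD, n = 4 each, log2 1.37 ± 0.24, SE, limma adjusted p = 0.000398). On the day 7 arrays labelled KO it fell by 1.61 ± 0.24 (SE, limma adjusted p = 2.02e-05, and 0.000789 without the doubted replicates). The other Ubd neighbours, 2410137M14Rik, Mog, Gabbr1, Olfr112 and Pgk2, did not pass between genotypes in untreated colon.

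Markers of T and NK cells moved with Ido1 and Ubd in untreated colon. Of 14 measured markers 7 were higher in KO and 0 lower, against 1.79% of all genes higher and 0.485% lower. They were led by Gzma (log2 3.45 ± 0.31, SE, limma adjusted p = 1.26e-08) and Gzmb (2.83 ± 0.33, SE, adjusted p = 9.79e-07), both granule proteases of cytotoxic cells. The summed intensity of the list was 477 to 603 in KO and 167 to 184 in WT untreated colon, and 12 of the 14 were near background on average in WT and 6 in KO, with Cd4, Cd5, Cd8b1, Prf1, Klrk1 and Ncr1 near background in both. On the day 7 arrays labelled KO 8 of the 14 fell, against 6.58% of all genes, and the sum was 162 to 179. Without the doubted replicates 6 of the 14 fell. At day 15 the sum was 373 to 744 in KO and 242 to 520 in WT. In WT tumors it was 238 to 437, with 5 of the 14 markers higher than in untreated colon, and in KO tumors it was 226 to 604, with 2 lower. Against untreated colon, 22.8% of all genes passed in WT tumors and 20.8% in KO tumors, in either direction. From array to array the sum did not always go with the 2 genes. KO tumor replicate 1 was highest in Ido1, in Ubd and in the sum (604), while KO day 15 replicate 4 was lowest in both genes with a sum of 667, and KO untreated replicate 4 was highest in Ido1 with the lowest sum of its group (477).

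The summed intensity of 8 macrophage markers was 2395 to 3830 in KO and 1126 to 2229 in WT untreated colon. There 0 of the 8 passed by limma and 6 had an unadjusted p under 0.05, against 12.8% of all genes. On the day 7 arrays labelled KO the sum was 618 to 1436. All 8 fell there, against 6.58% of all genes (6 of the 8 without the doubted replicates). At day 15 the sum was 3293 to 7534 in WT and 4560 to 13482 in KO. In tumors it was 6257 to 9029 in WT, with 7 of the 8 higher than in untreated colon, and 5706 to 8941 in KO, with 1 of the 8 (Lyz2) higher. Every KO tumor array was above every untreated KO array in this sum, although Lyz2 was the only single marker of the 8 that passed there. Markers of other cells also differed in WT tumors, where all 4 colonocyte markers and all 5 smooth muscle markers fell, and in KO tumors, where 3 of the 4 and 4 of the 5 fell. These tumor counts stand beside 22.8% of all genes passing in WT tumors and 20.8% in KO tumors, in either direction. The 5 measured dendritic cell markers summed to 62 to 77 in KO and 50 to 56 in WT untreated colon, with Flt3, Xcr1 and Zbtb46 near background in both. Of the 10 epithelial markers 0 passed between genotypes at any stage by limma, with 2, 1, 0 and 0 at an unadjusted p under 0.05 in untreated, day 7, day 15 and tumor. The part of these cell types in the levels of Ido1 and Ubd was not tested.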

How the data were processed

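RNA of colon or colon tumor was measured on Affymetrix mouse expression arrays (HT MG-430 PM). The authors deposited 1 intensity per probe set and array on a linear scale in whole numbers. The sources used here do not say how these values were made. An array has no read depth, and the number of arrays limits precision. Array correlations were 0.913 to 0.995, with 0 identical pairs.

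Intensities were taken as log2(intensity + 1) and quantile normalized. Of the probe sets, 28898 had 1 gene symbol, 551 several and 15588 none in the table used. Each gene took its probe set with the highest mean. limma 3.58.1 in R 4.3.3 fitted 8 group means over 36 arrays with an intensity trend, with Benjamini-Hochberg adjustment over the 17097 genes in each of 10 comparisons and 3 interactions, threshold 0.05. The procedure was tested on simulated data.

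The members, lists and tests were chosen with earlier results of these data known. Named genes were both members, the 10 most correlated with each, the 5 most correlated within groups, up to 4 passing genes per list and comparison, Il17rc, Ido2 and chromosomal neighbours. Gzma, Gzmb and Ifng's array range were picked with values in view. Residuals of arrays with the same replicate number were correlated by more than 0.1 in every pair in 2 comparisons. These were KO against WT at day 15 (0.174 to 0.801) and WT day 7 against untreated (0.164 to 0.398). Differences within pairs are given only for KO against WT at day 15. The main limma fit used no pairing, for WT day 7 against untreated as well. No label states such a pairing. Some listed genes were not analysed here, and a planned set of correlations is not reported here. Correlations within tumors are given without p-values, since their genes were chosen on these arrays.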

Additional observations from a re-analysis of the deposited data

Results flagged for a closer look

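The groups of Ido1, Ubd, Ifng, Il18bp, Irf1 and Wars were searched for an array far from the rest of its group by Dixon's ratio, and 9 of 48 groups held one. Chance gives about 1 in 20 for normally distributed values, a rate that need not hold here, since the ratio was taken on linear intensities. It does not hold for Ifng, which gave 4 of the 9 and whose whole numbers from 8 to 15 hold many ties. Ubd had such a high array in WT day 7 (replicate 3, 59), in the arrays labelled KO day 7 (replicate 3, 54) and in KO tumors (replicate 1, 1672). Il18bp had one in WT untreated colon (replicate 1, 23) and in KO tumors (replicate 1, 198), the same tumor array as for Ubd. Ifng had a high array in KO untreated colon (replicate 4, 15), in the arrays labelled KO day 7 (replicate 2, 11) and in WT day 15 (replicate 4, 11) and a low one in WT tumors (replicate 5, 9), all near background.

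In 3 cases every WT array lay above the mean of untreated WT colon and every array labelled KO lay below the mean of untreated KO colon. They were Ido1 at day 7 (difference of the changes -7.36 on the log2 scale), Ubd at day 7 (-7.12) and Ubd at day 15 (-4.06). The share of all genes with this pattern was not counted. These differences were not tested, since the genes were chosen on these arrays.

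Genes whose change from untreated colon differed between genotypes by the limma interaction were these. Such a difference equals KO minus WT at the stage less KO minus WT in untreated colon. None of these genes passed between genotypes at day 7 or in tumors. Their calls at those stages therefore largely restate the untreated difference with its sign turned and are not separate evidence. Il18bp had log2 differences of the changes of -4.47 at day 7 (limma adjusted p = 2.97e-06), -2.75 at day 15 (0.0286, lost in 13 of 29 other settings) and -3.95 in tumors (1.48e-05). Wars had -1.94 at day 7 (limma adjusted p = 0.00023) and -2.22 in tumors (2.71e-05). Irf1 had -1.93 at day 7 (limma adjusted p = 0.00269) and -1.65 in tumors (0.00823), and Irf8 had -1.59 at day 7 (0.00919) and -1.61 in tumors (0.00504). Without the arrays with Krt5 above 100 the Irf1 values were 0.0717 at day 7 and 0.0944 in tumors and the Irf8 values 0.0851 and 0.116, and the Irf8 value in tumors was 0.111 with the letter in the titles as a block, all limma adjusted p. Irf9 had -1.69 at day 7 (limma adjusted p = 0.00929, and 0.0781 without replicates 1 and 2 labelled KO day 7) and -1.41 in tumors (0.0359, lost in 17 of 33 other settings).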

How the results depend on the processing

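No result changed sign among those with a call. Ido1 and Ubd kept their sign in all settings except KO against WT in tumors, where it changed without any of 4 (Ido1) and 3 (Ubd) of the 12 single tumor arrays. A constant of 16 before the log gave KO against WT untreated 5.68 for Ido1 and 5.53 for Ubd, WT day 7 0.78 and 0.79, WT tumors 3.52 and 3.04, KO day 7 -5.25 and -5.21, and genotype differences of the change of -6.03 and -6.00 at day 7 and -5.45 and -5.42 in tumors. Without the arrays with Krt5 above 100 the Ido1 difference of the day 7 changes was -7.90. With arrays blocked by the letter in their title codes, Ubd was 7.27 in KO against WT untreated, WT day 7 was 2.08 for Ido1 and 1.98 for Ubd, Ido1 in KO day 7 was -5.66, and the Ubd differences of the changes were -7.87 at day 7 and -5.05 at day 15. With the number of that code as a block, Ido1 in KO against WT at day 7 was -0.99 and its difference of the day 7 changes -8.00. The sources used here do not say what the code stands for.

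Counts of passing genes among the 65 moved by more than 1.5 times as follows. Centring on array medians, or no normalization, gave 2 for KO against WT at day 15. Without replicates 1 and 2 labelled KO day 7 there were 0 for KO against WT at day 7. Without the arrays with Krt5 above 100 there were 2 for KO against WT at day 7, 0 in WT day 7, 12 in WT tumors, and 0 and 3 for the differences of the day 15 and tumor changes. The replicate block gave 0 for KO against WT at day 7 and at day 15, and 2 for the difference of the day 15 changes; it moved no other count by over 1.5 times. The letter block gave 0 for KO against WT at days 7 and 15, 2 in WT day 7, 1 in WT day 15, 8 in WT tumors, 8 in KO day 7, 0 in KO day 15, and 0 and 3 for the differences of the day 15 and tumor changes. The number block gave 0 for KO against WT at days 7 and 15, 10 in WT tumors, 0 in KO day 15 and 0 for the difference of the day 15 changes. The mean of all probe sets gave 0 for KO against WT at day 7, and 2 each in KO day 15 and the difference of the day 15 changes. Only genes with a mean of 16 or more gave 2 each in WT day 7, KO day 15 and the difference of the day 15 changes. Fitting only the groups compared gave 0 for KO against WT at days 7 and 15, and a constant prior variance 0 in KO day 15. Array weights gave 16 for KO against WT at day 7 and 0 at day 15, 6 in WT day 7, 9 in WT day 15, 25 in KO day 7, 0 in KO day 15, 30 in KO tumors, and 18, 3 and 9 for the differences of the changes at day 7, day 15 and tumor. Without both day 15 arrays of replicate 4, chosen after the data were seen, there were 0 for KO against WT at day 15, 10 in WT day 15, 0 in KO day 15 and 3 for the difference of the day 15 changes. The cause of these shifts was not tested.

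Leaving out single arrays gave 0 to 4 for KO against WT at day 7, 0 to 2 at day 15, 1 to 2 in WT day 7, 2 to 7 in WT day 15, 9 to 19 in WT tumors, 0 to 6 in KO day 15 and 0 to 3 for the difference of the day 15 changes. It gave 8 for KO against WT untreated in every case, 11 to 14 in KO day 7 and 14 to 20 in KO tumors. The correlation of Ido1 with Irf1 in WT tumors then ran from 0.84 to 0.959, and that of Ubd with Irf1 from 0.624 to 0.954. Of the 10 genes most like Ido1, 3 stayed after group means were subtracted; of those most like Ubd, 1 stayed, and 6 by Spearman's rho. The correlations with Irf1 were added after the data were seen. Low intensities limit the folds against untreated WT and day 7 levels, and Ifng was near background throughout.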
